A study of Mus musculus with 24 samples.

Results

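T-cell receptor repertoires of CT26 tumors from mice given 2 mg/kg decitabine were compared with those from mice given 0.5 mg/kg. The comparison took every tumor whose treatment label named either dose. It covered 12 of the 24 tumors of the series, 6 tumors from 3 mice (mice 7, 10 and 16) at 2 mg/kg and 6 tumors from 3 mice (mice 3, 11 and 20) at 0.5 mg/kg. CT26 is a colon carcinoma line of the BALB/c mouse, and the labels give the subline CT26.CL25. Female BALB/c mice, obtained at an age of 7 to 9 weeks, were inoculated under the skin of both flanks, so that each mouse carried a pair of tumors. One tumor was removed by surgery on day 9. From 3 days later decitabine was given into the peritoneum as 5 daily doses, and the remaining tumor was taken 4 days after the last dose, on day 20. One tumor of every mouse therefore preceded any decitabine. Tumors are labelled 1 and 2 within each mouse, the labels do not state which was early, and no time was assigned to either number. The 3 untreated mice with the same surgery and harvest (mice 4, 17 and 19) are given for reference. The libraries were made from RNA of whole tumors and hold receptor transcripts alone, so the tissue label could not be checked against other markers.

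Decitabine is a cytidine analog that is built into DNA and traps DNA methyltransferases, which lowers DNA methylation in dividing cells. The receptor of most T cells is a pair of chains, TCRα (TRA) and TCRβ (TRB). Each chain is assembled in the thymus from a V and a J segment, with a D segment in the β chain, and bases are trimmed and added where the segments join. The joint encodes the CDR3, the loop that lies over the presented peptide. All progeny of a T cell keep its rearrangement, so a clonotype, defined here as a CDR3 amino acid sequence with its V and J segment, follows a T-cell clone, and its share of the counts reflects both the number of its cells and the receptor RNA in each.

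The largest clonotype of each mouse shows how different the repertoires of the 6 mice were. The sequences below are the commonest nucleotide sequences of the largest TRB clonotypes, from the conserved cysteine codon to the closing phenylalanine codon. Capitals mark the bases between the stretch shared with the usual start of the V segment and that shared with the usual end of the J segment, as computed from the deposited sequences.
Mouse 7, TRBV17 with TRBJ2-7, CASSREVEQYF: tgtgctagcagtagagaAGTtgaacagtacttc
Mouse 10, TRBV17 with TRBJ1-6, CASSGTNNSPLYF: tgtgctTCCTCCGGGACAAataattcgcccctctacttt
Mouse 16, TRBV13-2 with TRBJ2-5, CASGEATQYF: tgtgccagcggtgaGGCcacccagtacttt
Mouse 3, TRBV19 with TRBJ2-1: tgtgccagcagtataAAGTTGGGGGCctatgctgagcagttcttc
Mouse 11, TRBV17 with TRBJ2-1, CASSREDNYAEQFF: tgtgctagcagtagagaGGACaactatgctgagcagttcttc
Mouse 20, TRBV17 with TRBJ2-4, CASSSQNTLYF: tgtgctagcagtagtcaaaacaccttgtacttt

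Of these 6 TRB clonotypes, 4 used TRBV17, 2 of them at 2 mg/kg and 2 at 0.5 mg/kg. At 2 mg/kg, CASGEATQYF took 30.0% of the TRB counts in tumor 1 and 33.1% in tumor 2 of mouse 16. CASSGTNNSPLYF took 18.9% and 13.9% in mouse 10, and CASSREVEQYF took 0.606% and 15.9% in mouse 7. The clone of mouse 16 was thus near the same share in both tumors, whereas that of mouse 7 ranked 24th in tumor 1 and first in tumor 2. At 0.5 mg/kg, the TRBV19 clonotype of mouse 3 took 2.65% and 16.1%, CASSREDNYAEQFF of mouse 11 took 16.7% and 3.83%, and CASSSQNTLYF of mouse 20 took 6.28% and 19.5%. All 3 clones of the low dose thus differed widely in share between the tumors of their mouse, and in different directions. With 95% Clopper-Pearson intervals of 15.7% to 16.2% for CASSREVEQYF in tumor 2 of mouse 7 and 0.578% to 0.635% in tumor 1, counting error was small beside these differences. Such intervals cover counting error only and take each count as an independent draw. Whether a count is a read or a molecule was not settled.

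The TCRα sequences are shown for the same reason, and they hold fewer capitals in all.
Mouse 7, TRAV7-3 with TRAJ26, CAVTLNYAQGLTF: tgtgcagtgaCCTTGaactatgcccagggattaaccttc
Mouse 10, TRAV3-3 with TRAJ13, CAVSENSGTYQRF: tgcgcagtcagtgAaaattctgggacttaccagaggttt
Mouse 16, TRAV9D-4 with TRAJ53: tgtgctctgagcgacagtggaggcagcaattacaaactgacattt
Mouse 3, TRAV14-1 with TRAJ39: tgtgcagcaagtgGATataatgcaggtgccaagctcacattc
Mouse 11, TRAV6-5 with TRAJ30: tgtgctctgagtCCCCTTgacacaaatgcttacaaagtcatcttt
Mouse 20, TRAV11 with TRAJ32: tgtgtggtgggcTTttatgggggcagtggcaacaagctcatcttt

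At 2 mg/kg, the largest TRA clonotype of mouse 7 took 15.4% and 15.5% of the TRA counts of tumors 1 and 2, that of mouse 10 took 16.0% and 21.1%, and that of mouse 16 took 15.2% and 17.9%. At 0.5 mg/kg, the largest TRA clonotype held 14.2% and 15.2% for mouse 3, 5.58% and 14.4% for mouse 11, and 2.74% and 22.1% for mouse 20. Among the high-dose mice, the largest TRA clone thus differed most between the tumors in mouse 10, at 16.0% and 21.1%. The clones of low-dose mice 11 and 20 differed more than that, and the clone of low-dose mouse 3 differed less. The 6 clones were chosen for their size in these libraries, and no test was made of them.

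**Figure D1:**
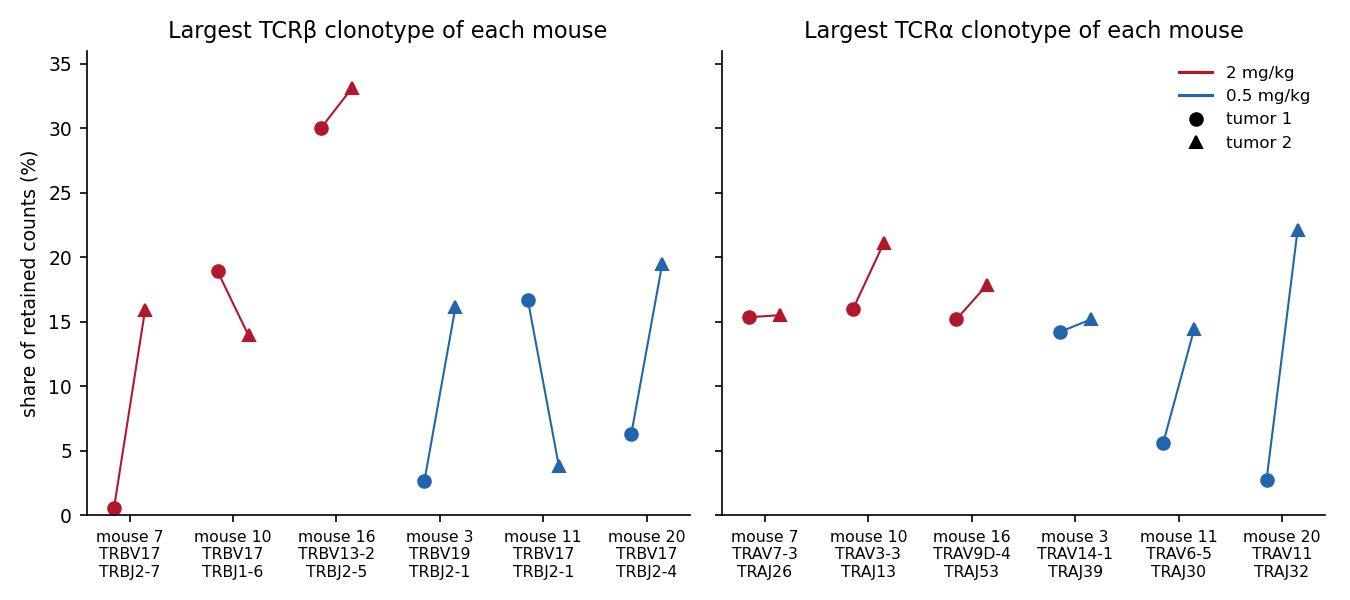
Share of the retained counts (percent) held by the largest clonotype of each decitabine mouse in tumor 1 and in tumor 2, for TRB and TRA, with 1 line per mouse, circles for tumor 1, triangles for tumor 2, bars for the 95% Clopper-Pearson interval (mostly hidden by the points) and the doses in different colours. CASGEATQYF of mouse 16 stayed near 30.0% and 33.1%, while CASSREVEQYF of mouse 7 went from 0.606% in tumor 1 to 15.9% in tumor 2.

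The high-dose tumors yielded more TRB counts. Retained counts are those of productive receptor sequences (no stop codon and in frame) seen at least 2 times. At 2 mg/kg, the TRB tables of tumors 1 and 2 held 283419 and 64192 retained counts for mouse 7, 332368 and 404331 for mouse 10, and 887567 and 404849 for mouse 16. At 0.5 mg/kg, they held 185931 and 63291 for mouse 3, 199081 and 98820 for mouse 11, and 134780 and 96406 for mouse 20. Tumor 2 of mouse 7 lay among the low-dose tumors, and the other 5 high-dose tumors lay above all 6 of them. With 1 value per mouse, the means were 396121 ± 237423 (SD, n = 3) at 2 mg/kg and 129718 ± 17255 (SD, n = 3) at 0.5 mg/kg. The 3 high-dose mice were all above the 3 low-dose mice, with a two-sided exact permutation p = 0.1, the smallest value that 3 mice against 3 can give. The difference between the means, 266403 counts, was 141360 without mouse 16. On the log2 scale, averaged over the tumors of each mouse, the difference was 1.37 (0.89 without mouse 16) and the doses overlapped, since the small second tumor of mouse 7 weighs more there (exact permutation p = 0.2). The untreated mice averaged 170696 retained TRB counts. In whole tumors, fewer T cells and less receptor RNA per cell cannot be told apart, and tumor size, RNA input and sequencing depth were not tested.

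TCRα yield overlapped between the doses. The TRA means were 174864 ± 50174 retained counts at 2 mg/kg and 104222 ± 43273 at 0.5 mg/kg (SD, n = 3 each, exact permutation p = 0.2). Among the 12 decitabine tumors, the smallest TRA table, 26623 counts, was tumor 2 of mouse 7 and the largest, 236622, was tumor 2 of mouse 10, both at the high dose.

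The excess of TRB counts lay in counts per clonotype more than in clonotypes. Mice 7, 10 and 16 had 84.7, 135 and 276 TRB counts per clonotype, and mice 3, 11 and 20 had 65.8, 70.1 and 56.7 (means 165 ± 99.0 and 64.2 ± 6.83, no overlap, exact permutation p = 0.1). The difference between the means was 101 counts per clonotype, and 45.7 without mouse 16. The untreated mice, at 63.3 to 76.8, lay below all 3 high-dose mice, and mouse 4 alone was within the low-dose range. The mean number of TRB clonotypes per tumor was 2361 ± 379 at the high dose and 2019 ± 137 at the low dose, with overlap (exact permutation p = 0.3). For TRA, counts per clonotype were 65.2, 108 and 127 at 2 mg/kg and 62.1, 77.4 and 52.4 at 0.5 mg/kg (exact permutation p = 0.2). Productive sequences counted once, left out of the retained counts, held 2.57% of all TRB counts at the high dose and 4.70% at the low dose, without overlap (exact permutation p = 0.1). Non-productive TRB sequences held 7.29% ± 0.676 and 8.19% ± 0.702 of the counts (SD, n = 3 each, exact permutation p = 0.2). Non-productive TRA sequences held 18.0%, 12.0% and 25.9% in mice 7, 10 and 16, against 13.0%, 12.3% and 10.6% in mice 3, 11 and 20 (exact permutation p = 0.3). As means of their tumors, mice 7 and 16 were thus above every low-dose and untreated mouse, the last lying at 13.3% to 14.0%, and mouse 10 was not. By tumor, mouse 16 held 27.7% and 24.2% in tumors 1 and 2, and mouse 7 held 14.1% and 21.8%. The 14.1% lay below the 14.5% in tumor 1 of untreated mouse 19, and the 21.8% came from the smallest TRA table.

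**Figure D2:**
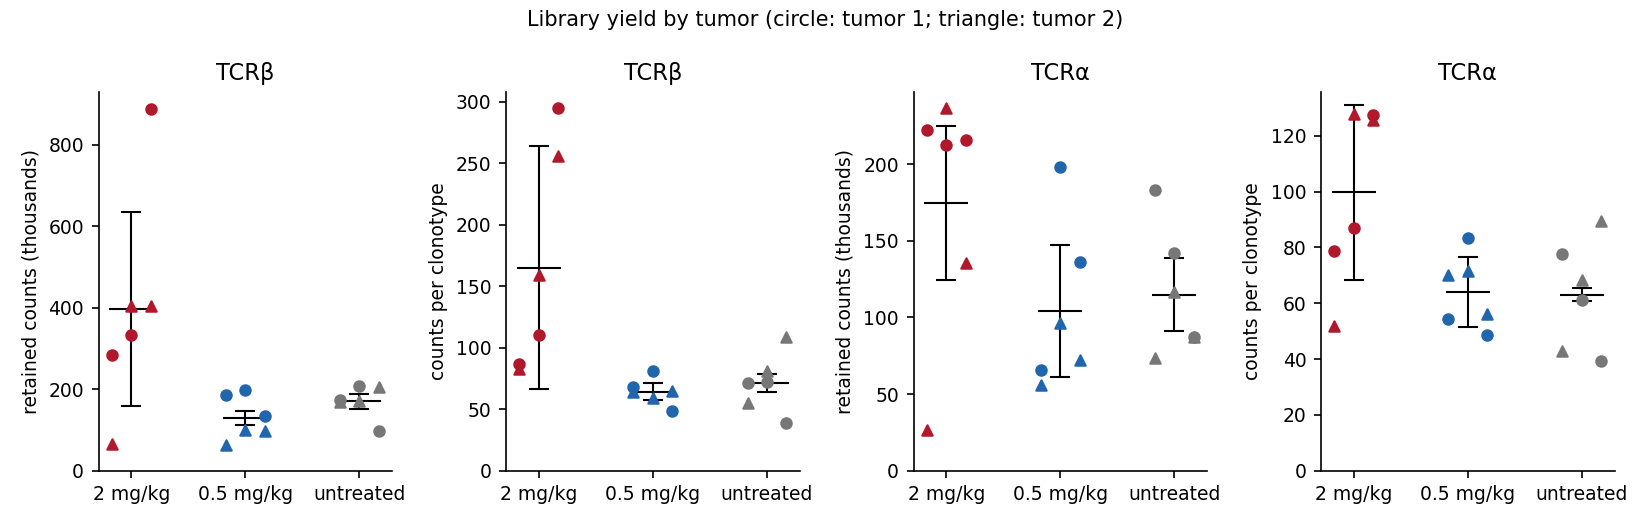
Retained counts and counts per clonotype of each tumor at both doses and in the untreated time-separated mice on each chain, with circles for tumor 1, triangles for tumor 2, and the mean and SD over the 3 mice of a group in black. By mouse, TRB counts per clonotype were 84.7 to 276 at 2 mg/kg and 56.7 to 70.1 at 0.5 mg/kg, and for TRA the doses overlapped.

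Large clones held more of the TRB repertoire at the high dose. To compare tumors at an equal number of counts, every library of a chain was thinned at random to the smallest one, 63291 counts for TRB and 26623 for TRA, and clonotypes were sorted into those above 1%, of 0.1% to 1% and below 0.1% of a tumor's counts. TRB clonotypes above 1% held 72.6%, 68.7% and 83.8% in mice 7, 10 and 16, against 65.9%, 66.2% and 61.2% in mice 3, 11 and 20. The means, 75.0% ± 7.86 and 64.4% ± 2.82 (SD, n = 3 each), differed by 10.6 percentage points, the mice did not overlap, and the exact permutation p was 0.1. Between any high-dose and any low-dose mouse the difference was 2.48 to 22.6 points, and without mouse 16 the means differed by 6.18 points. The middle class, 0.1% to 1%, held 9.73% ± 4.13 at the high dose and 15.3% ± 0.634 at the low dose, and the class below 0.1% held 15.2% ± 4.17 and 20.3% ± 2.72 (SD, n = 3 each). Neither class overlapped between doses (exact permutation p = 0.1 for each), but in the class below 0.1% the nearest mice, mouse 7 at 17.97% and mouse 11 at 18.00%, were 0.0288 points apart. Without mouse 16 the differences in these classes went from -5.57 to -3.57 points and from -5.01 to -2.61 points. In the untreated mice, clonotypes above 1% held 55.2%, 66.5% and 55.9%, a range that takes in all 3 low-dose mice and lies below all 3 high-dose mice.

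The TRB clonotypes above 1% were not more numerous at the high dose. Their mean number per tumor was 12.9 ± 3.81 at 2 mg/kg and 14.9 ± 2.05 at 0.5 mg/kg (SD, n = 3 each, exact permutation p = 0.4). The 10 largest clonotypes held 60.4%, 64.7% and 84.5% in mice 7, 10 and 16 and 60.4%, 56.0% and 54.9% in mice 3, 11 and 20. These did not overlap (exact permutation p = 0.1), although mice 7 and 3 were only 0.0207 points apart, and the difference of 12.8 points between the means was 5.44 without mouse 16. The largest clonotype of a tumor averaged 12.6%, 19.0% and 31.6% in the high-dose mice and 14.7%, 14.5% and 17.2% in the low-dose mice, with overlap (exact permutation p = 0.6). Mouse 16 had the highest value of the 6 mice in each of these last 2 measures.

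TRB evenness was lower at the high dose by one index. The normalized Shannon index, which is 1 when all clonotypes are equally large, was 0.574, 0.535 and 0.402 in mice 7, 10 and 16 and 0.579, 0.582 and 0.598 in mice 3, 11 and 20, without overlap (exact permutation p = 0.1). The difference, -0.0826, was -0.0318 without mouse 16. The Gini coefficient, which is 0 for equal clonotypes, averaged 0.918 ± 0.0266 and 0.886 ± 0.0143 and overlapped (SD, n = 3 each, exact permutation p = 0.2). Clonotype number at the common depth was 1679, 1880 and 1225 at the high dose and 1634, 1823 and 1992 at the low dose, a log2 difference of -0.23 (exact permutation p = 0.3) that was -0.095 without mouse 16 and -0.40 without mouse 10. Without thinning that difference was 0.17, of the opposite sign. Mean TRB CDR3 length over clonotypes was 13.6, 13.5 and 13.3 residues in mice 7, 10 and 16, against 13.9, 13.8 and 13.7 in mice 3, 11 and 20 (difference -0.307 residues, no overlap, exact permutation p = 0.1). The untreated mice spanned 13.5 to 14.4 residues, and weighted by counts the doses overlapped (exact permutation p = 0.3).

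The TCRα clone-size classes showed smaller differences. TRA clonotypes above 1% held 62.6%, 61.3% and 65.7% in mice 7, 10 and 16 and 59.5%, 60.2% and 50.9% in mice 3, 11 and 20. The means were 63.2% ± 2.26 and 56.9% ± 5.18 (SD, n = 3 each), the mice did not overlap, and the exact permutation p was 0.1. The difference, 6.35 points, was 3.36 without mouse 20. In the tumors numbered 2 alone the difference was -0.79 points, against 13.5 points in the tumors numbered 1. The class of 0.1% to 1% held 18.9% ± 0.424 and 23.2% ± 2.28, without overlap (exact permutation p = 0.1), and the class below 0.1% held 17.9% ± 1.83 and 20.0% ± 3.01, with overlap (exact permutation p = 0.5). The TRA Shannon index was 0.611 ± 0.0277 and 0.645 ± 0.0240 (SD, n = 3 each, exact permutation p = 0.3), the Gini coefficient 0.867 ± 0.0156 and 0.852 ± 0.0167 (exact permutation p = 0.5), and the mean CDR3 length 13.7 ± 0.204 and 13.6 ± 0.0921 residues (exact permutation p = 0.9). In the tumors numbered 2 alone, the differences also turned to 1.30 points for the class of 0.1% to 1%, 0.0192 for the Shannon index and -0.0129 for the Gini coefficient. All 3 untreated mice, with 44.6% to 52.5% in TRA clonotypes above 1%, were below the 3 high-dose mice, and their range included mouse 20.

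**Figure D3:**
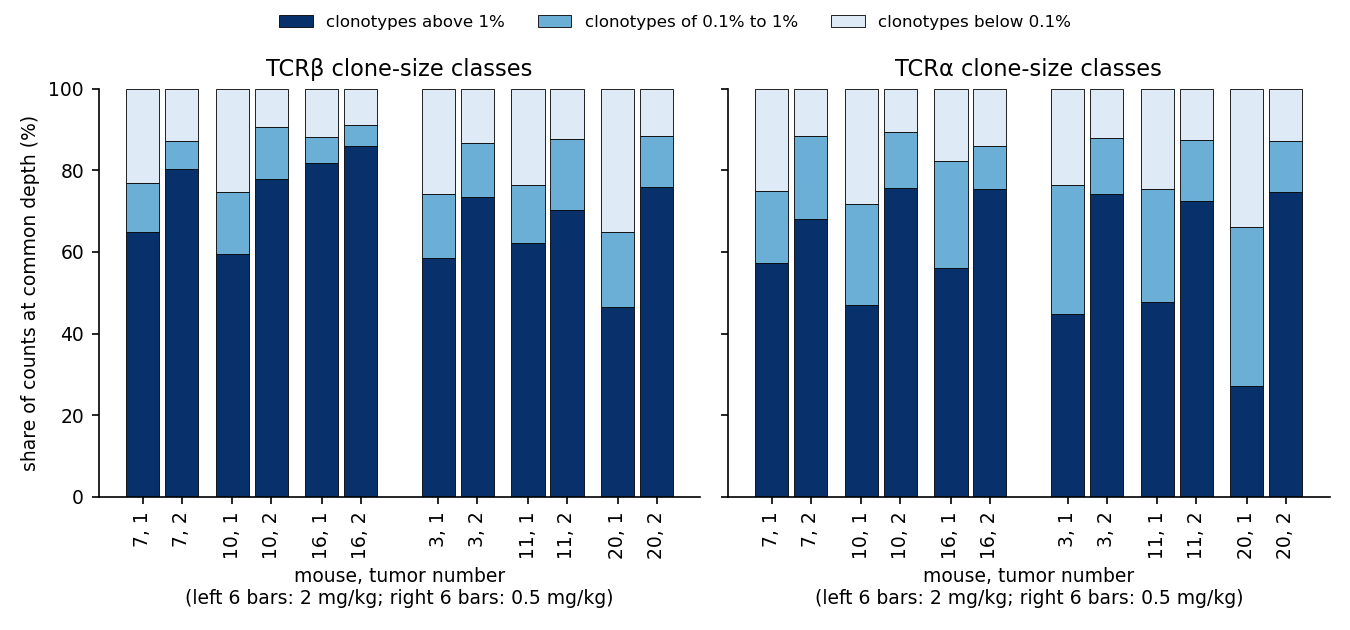
Share of the counts (percent, at the common depth) in clonotypes above 1%, of 0.1% to 1% and below 0.1%, as 1 stacked bar for each tumor of the 6 decitabine mice and a panel for each chain. In every mouse and on both chains the darkest section, clonotypes above 1%, was taller in tumor 2, for TRB from 46.4% to 76.0% in mouse 20 and from 81.7% to 85.9% in mouse 16.

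The share in large clonotypes was higher in tumor 2 than in tumor 1 of every decitabine mouse. TRB clonotypes above 1% held 64.9%, 59.4% and 81.7% in tumor 1 of mice 7, 10 and 16 and 80.2%, 78.0% and 85.9% in tumor 2. In mice 3, 11 and 20 they held 58.4%, 62.2% and 46.4% in tumor 1 and 73.4%, 70.2% and 76.0% in tumor 2. The gain averaged 12.7 ± 7.51 points at the high dose and 17.5 ± 11.0 at the low dose for TRB, and 19.6 ± 8.98 and 33.8 ± 12.0 points for TRA (SD, n = 3 each). The number of clonotypes at the common depth was lower in tumor 2 in 6 of 6 mice on both chains. Other measures were split, with the number of TRB clonotypes above 1% higher in tumor 2 in 4 of 6 mice and the TRB Shannon index in 1 of 6. The untreated mice had a larger share above 1% in tumor 2 in 2 of 3 mice for TRB and 3 of 3 for TRA. Since the labels give no time for either number, these are differences between label numbers, and the direction was seen before it was described.

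By their overlap index, the tumors of a mouse were more alike at the high dose for TCRα, whereas for TCRβ the doses overlapped. The Morisita-Horn index compares clonotype shares between a pair of tumors and runs from 0, with nothing in common, to 1, with equal shares. For TRA it was 0.877, 0.878 and 0.825 in mice 7, 10 and 16, against 0.570, 0.707 and 0.320 in mice 3, 11 and 20. The high-dose mice lay close together, all above the low-dose mice (means 0.860 ± 0.0302 and 0.532 ± 0.196, SD, n = 3 each, exact permutation p = 0.1). The untreated mice, at 0.383, 0.795 and 0.147, were all below the high-dose mice and spread beyond the low-dose range on both sides. For TRB the index was 0.548, 0.826 and 0.939 at the high dose and 0.486, 0.605 and 0.706 at the low dose, with overlap (exact permutation p = 0.3), and the untreated mice had 0.606, 0.949 and 0.605. The TRB difference of 0.172 between the means was 0.0879 to 0.284 with 1 mouse left out. After removal of every mouse's largest clonotype, the TRA difference was 0.255 (exact permutation p = 0.2) in place of 0.328.

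Private clonotypes, meaning those absent from the other tumor of their mouse at the common depth, held less of the repertoire at the high dose on both chains. Their share, averaged over the tumors of a mouse, was 13.4%, 14.8% and 4.72% of the TRB counts in mice 7, 10 and 16 and 17.0%, 18.3% and 21.4% in mice 3, 11 and 20. For TRA it was 17.0%, 19.0% and 13.0% against 23.6%, 22.0% and 28.6%. Neither chain overlapped between doses, with differences of -7.91 points for TRB and -8.41 points for TRA (exact permutation p = 0.1 for each), and the TRB difference was -4.79 points without mouse 16. In the tumors numbered 2, the TRB private share was 4.99% ± 1.17 at the high dose and 12.0% ± 4.47 at the low dose (SD, n = 3 each), and the TRA share 8.05% ± 1.78 and 12.9% ± 2.65, both without overlap (exact permutation p = 0.1 for each). For TRA the nearest mice, at 10.00% for the high dose and 10.18% for the low dose, were almost level. The TRB difference in these tumors, -7.01 points, was -4.52 without mouse 11. In the tumors numbered 1 the doses overlapped on both chains. The untreated mice ranged from 10.6% to 36.9% for TRB and from 17.6% to 54.9% for TRA, wider than both doses together. The share of distinct TRB clonotypes found in both tumors, counted without regard to size, was 17.7% ± 3.98 at the high dose and 14.3% ± 1.24 at the low dose (SD, n = 3 each, exact permutation p = 0.2).

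All of the 10 largest clonotypes of each mouse were found in both of its tumors, in all 6 decitabine mice and on both chains. Their shares nevertheless differed between the tumors. A wider set took in every clonotype among the 10 largest of either tumor. Over this set, the median absolute log2 ratio between the tumors for TRB was 1.13, 1.07 and 2.28 in mice 7, 10 and 16 and 1.71, 1.74 and 1.63 in mice 3, 11 and 20, with overlap (exact permutation p = 0.7). For TRA it averaged 1.83 ± 0.439 and 2.09 ± 0.545 (SD, n = 3 each, exact permutation p = 0.5). Of the 10 largest TRB clonotypes of tumor 1, 7 were among the 10 largest of tumor 2 in every decitabine mouse but mouse 11, where 5 were. For TRA, 5, 6 and 5 were in mice 7, 10 and 16, and 6, 7 and 4 in mice 3, 11 and 20.

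**Figure D4:**
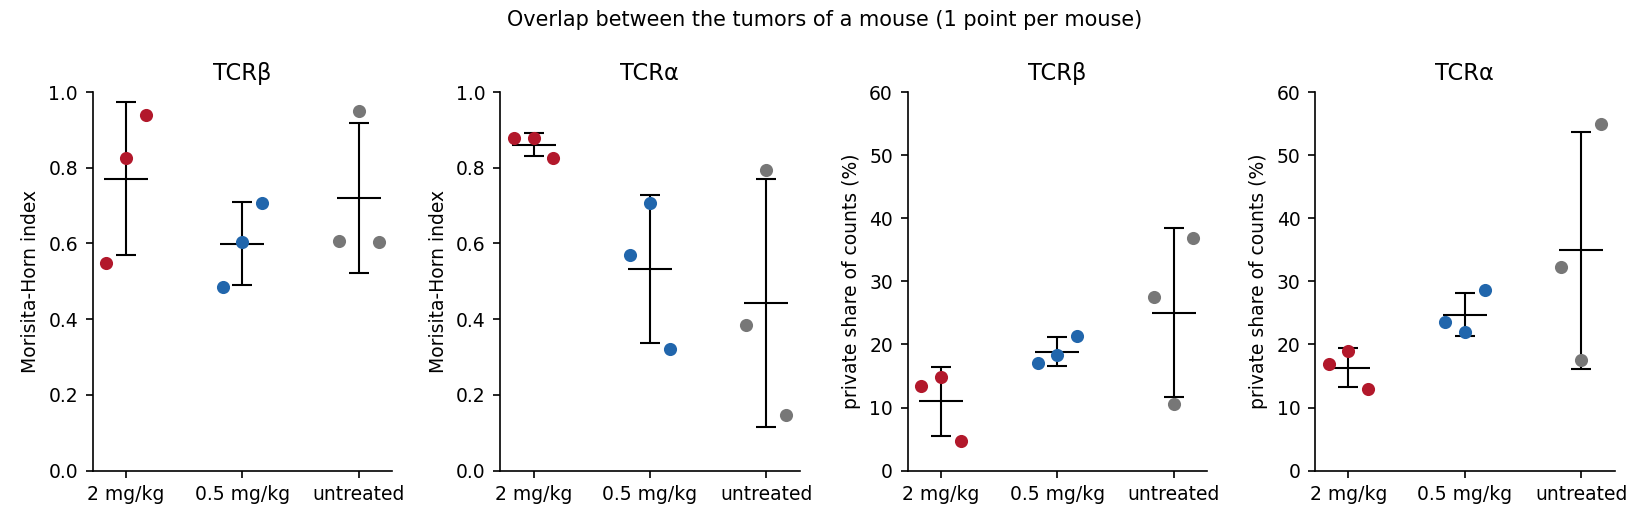
Morisita-Horn index (0 to 1) and private share (percent) between the tumors of a mouse at the common depth, with 1 point per mouse, the mean and SD over the 3 mice of a group in black and the untreated time-separated mice beside the doses. The 3 TRA values at 2 mg/kg lay at 0.825 to 0.878, above the low-dose mice at 0.320 to 0.707, and the untreated mice spread from 0.147 to 0.795.

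The exact p-values were adjusted over a family of 28 measures, 14 on each chain, of which 11 did not overlap between the doses, 7 for TRB and 4 for TRA. Outside that family, 34 more measures were compared, among them untransformed counts, counts per clonotype and the shares of single tumors, and 7 of these did not overlap, 5 for TRB and 2 for TRA. The lowest Benjamini-Hochberg adjusted exact permutation p was 0.255 over the 28 and 0.344 over all 62, so no measure passed a threshold of 0.05, and with 3 mice a dose none could have. Many of the measures describe the same clone-size distribution and are not independent of each other.

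Different mice shared little. The median Morisita-Horn index between tumors of different mice was 0.000937 for TRB at 2 mg/kg, 0.00926 at 0.5 mg/kg and 0.00262 across the doses. For TRA the medians were 0.000558, 0.0382 and 0.00627. Within a mouse the lowest index of the 6 was 0.486 for TRB and 0.321 for TRA, above the highest between mice, 0.0802 and 0.0795. Of 21624 TRB and 16390 TRA clonotypes in the 6 mice, 214 TRB clonotypes were found in 2 or more high-dose mice and 212 in 2 or more low-dose mice, and for TRA 207 and 306. The tumors of 1 mouse enter several of these pairs, so no test was made.

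A few public clonotypes, meaning the same receptor chain in different animals, reached large shares. The TRB clonotype with the highest share outside its top mouse was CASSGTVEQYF, with TRBV17 and TRBJ2-7. It held 7.06% and 8.31% in tumors 1 and 2 of mouse 16 and 4.16% and 6.38% in mouse 7, both at the high dose. At the low dose it had 2 counts in mouse 3 and 10 and 2 counts in the tumors of mouse 20, and mouse 11 had none. The nucleotide sequences are shown because they separate independent rearrangements from a shared one, with capitals as above.
Mouse 7: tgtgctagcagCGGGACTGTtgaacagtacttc
Mouse 16, and 6 of the 10 counts in tumor 1 of mouse 20: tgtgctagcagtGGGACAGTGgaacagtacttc
Mouse 3: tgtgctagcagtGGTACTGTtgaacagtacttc
Mice 7 and 16 thus encoded the same β chain by different bases, and the 2 counts in tumor 2 of mouse 20 had a sequence other than that of mouse 16. All 6 largest TRB clonotypes were found in another decitabine mouse, 5 of them at under 0.05% as a mean of its tumors. Of these 5, 4 had the same main sequence there as in their own mouse, at 2 to 13 counts a tumor, among them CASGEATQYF in 4 other mice. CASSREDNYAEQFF, the largest TRB clonotype of low-dose mouse 11, was also found in high-dose mouse 10, at 0.0692% and 0.0930%, by a different sequence.
Mouse 11: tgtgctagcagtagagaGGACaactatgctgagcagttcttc
Mouse 10: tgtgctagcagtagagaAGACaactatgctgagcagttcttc

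The TRA clonotype with the highest share outside its top mouse was one of TRAV7-4 with TRAJ12. It held 2.99% and 7.56% in tumors 1 and 2 of mouse 3 and 2.52% and 9.05% in mouse 20, both at the low dose, by the same commonest sequence in both mice.
Mice 3 and 20, TRAV7-4 with TRAJ12: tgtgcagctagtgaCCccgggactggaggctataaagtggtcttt
Of the 6 largest TRA clonotypes, 4 were found in another decitabine mouse, 2 of them at 2 and 3 counts by the main sequence of their own mouse. The largest TRA clonotype of mouse 16 (TRAV9D-4 with TRAJ53) was found in mouse 3 at 0.102% and 1.08% with an identical sequence, which has no base outside the V and J matches. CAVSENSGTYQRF, the largest of mouse 10, held 1.26% in tumor 2 of mouse 20, where an extra base matched neither segment, and had 5 counts of its own sequence in mouse 11.
Mouse 20, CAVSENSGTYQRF: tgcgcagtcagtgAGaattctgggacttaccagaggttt
Between mouse pairs, the median share of common clonotypes that also had a nucleotide sequence in common was 32.7% for TRB at the high dose, 43.9% at the low dose and 46.5% across the doses, and 63.8%, 61.2% and 64.6% for TRA. Identical sequences in 2 mice can be the same rearrangement made in each, or sequences carried between libraries, and these were not told apart.

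Clonotypes present in all 6 decitabine mice numbered 6 for TRB and 10 for TRA. The 6 TRB clonotypes were small, with a highest mean share of 0.474% in any mouse, for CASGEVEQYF with TRBV13-2. Of the 10 TRA clonotypes, 5 joined TRAV7-2 to TRAJ40 in a CDR3 of 14 residues, among them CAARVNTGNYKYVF at 0.0484% to 0.427% and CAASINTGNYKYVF at 0.0194% to 0.356% of a mouse's counts. These 5 chains differ from each other in the residues at the joint and share the TRAJ40 end. The invariant chain of natural killer T (NKT) cells was also among the 10.

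Use of V and J segments was compared next, by counts, where large clones weigh most, and by clonotypes, where each clone weighs the same. V segments carry the first and second contact loops of the receptor. Segments with a mean share of at least 0.1% were tested with edgeR's quasi-likelihood test, on the sum of the tumors of each mouse, with Benjamini-Hochberg adjustment. No TRBV segment passed an adjusted p of 0.05, 0 of 17 by counts (0%) and 0 of 21 by clonotypes (0%), with 1 in each at an unadjusted p below 0.05, and DESeq2 called 1 by counts, TRBV30. The leading segments were TRBV17, TRBV13-2 and TRBV13-1. TRBV17 held 21.1%, 34.0% and 15.1% of the TRB counts in mice 7, 10 and 16 and 20.6%, 27.6% and 36.2% in mice 3, 11 and 20. TRBV13-2, which carries the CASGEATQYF clone, held 12.7%, 2.93% and 47.0% against 21.6%, 13.2% and 4.12%. TRBV13-1 held 26.0%, 12.6% and 23.6% against 6.67%, 16.6% and 14.7%. All 3 overlapped, with mice 10 and 16, of the same dose, at the extremes of TRBV13-2. By clonotypes that spread was smaller, with TRBV13-2 at 13.7%, 7.15% and 23.8% against 18.5%, 13.1% and 10.2%.

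The TRBV segments that did not overlap between the doses numbered 1 of 17 by counts (5.88%) and 0 of 21 by clonotypes (0%). This was TRBV5, with 2.88%, 3.95% and 0.827% at the high dose and 3.99%, 7.72% and 8.11% at the low dose (edgeR log2 ratio -1.19 ± 1.10 SE, adjusted p = 0.702, and -0.76 without mouse 16). The TRBV13 family, whose 3 members encode the β chains historically called Vβ8, held 48.2% ± 29.0 and 30.5% ± 3.61 of the counts (SD, n = 3 each, exact permutation p = 0.4). Segments whose T cells are deleted in BALB/c mice by superantigens of endogenous retroviruses (TRBV12-1, TRBV12-2, TRBV15, TRBV16 and TRBV26) together held 0.716% ± 0.632 of the counts at the high dose and 1.80% ± 1.20 at the low dose, and 1.98% ± 0.823 and 2.76% ± 0.775 of the clonotypes (SD, n = 3 each, exact permutation p = 0.2 for both). The median log2 ratio over the 17 tested TRBV segments was -0.38, and over the 21 by clonotypes -0.17.

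No TRBJ segment passed the edgeR threshold, 0 of 12 by counts (0%) and 0 of 13 by clonotypes (0%), with 1 and 0 at an unadjusted p below 0.05 and none by DESeq2. Without mouse 16, TRBJ1-6 was called by both. It holds the joint of the largest clone of mouse 10, with 9.29%, 19.0% and 0.372% of the counts in mice 7, 10 and 16 and 1.81%, 0.902% and 3.11% in mice 3, 11 and 20, a segment chosen here with its values known. The leading TRBJ segments were TRBJ2-7, with 33.3%, 29.7% and 23.2% against 33.0%, 16.3% and 12.4%, TRBJ2-1, with 13.7%, 16.0% and 6.37% against 15.0%, 31.5% and 27.1%, and TRBJ2-5, with 11.5%, 4.37% and 41.3% against 10.2%, 18.4% and 14.9%. All 3 overlapped by counts. By clonotypes TRBJ2-1 did not, with 13.1%, 13.6% and 10.3% against 13.7%, 20.0% and 18.4%, the 1 of 13 (7.69%) that did not overlap (edgeR adjusted p = 0.723). By counts the 1 of 12 (8.33%) was TRBJ1-3, with 1.09%, 0.968% and 0.673% against 1.15%, 4.24% and 1.51% (edgeR adjusted p = 0.785). The TRBJ1 cluster, which lies nearest to the V segments, held 22.9% ± 18.2 and 17.3% ± 5.08 of the counts (SD, n = 3 each, exact permutation p = 0.7).

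Of these segment comparisons, edgeR made calls with all 6 mice in TRAV use by counts alone. Of 53 TRAV segments tested, edgeR called 4 (7.55%), 3 higher at 2 mg/kg (5.66%) and 1 lower (1.89%), the latter tested only because of mouse 20, while 5 of 53 (9.43%) did not overlap between the doses and the median log2 ratio over the 53 was -0.06. TRAV9-2 alone did both. It held 1.81%, 1.11% and 6.44% of the TRA counts in mice 7, 10 and 16 and 0.266%, 0.292% and 0.185% in mice 3, 11 and 20. Every high-dose mouse was thus far above every low-dose mouse (edgeR log2 ratio 3.43 ± 1.07 SE, adjusted p = 0.0367). With 1 mouse left out, the log2 ratio was 2.74 to 3.84. The untreated mice, at 0.516% to 4.03%, overlapped the high dose and lay above the low dose.

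The TRAV9-2 counts came from a different leading clone in each high-dose mouse, shown here for that reason.
Mouse 7, TRAV9-2 with TRAJ49, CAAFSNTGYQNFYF: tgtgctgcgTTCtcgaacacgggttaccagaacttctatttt
Mouse 10, TRAV9-2 with TRAJ22, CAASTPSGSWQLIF: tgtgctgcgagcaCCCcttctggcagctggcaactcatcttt
Mouse 16, TRAV9-2 with TRAJ32: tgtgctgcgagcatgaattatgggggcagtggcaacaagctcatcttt
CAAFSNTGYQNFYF held 2.04% and 0.162% of tumors 1 and 2 of mouse 7, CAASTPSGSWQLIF 1.56% and 0.0330% in mouse 10, and the TRAJ32 clonotype 0.0806% and 7.49% in mouse 16. By tumor, the TRAV9-2 share was 2.93% and 0.680% for mouse 7, 2.07% and 0.139% for mouse 10 and 1.64% and 11.2% for mouse 16, against 0.0665% to 0.437% in the 6 low-dose tumors. Tumor 2 of mouse 10 was within the low-dose range, and the other 5 high-dose tumors were above it. By clonotypes TRAV9-2 held 2.35%, 1.77% and 5.69% at the high dose and 0.952%, 0.754% and 0.671% at the low dose, also without overlap (edgeR adjusted p = 0.115).

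The other 3 calls rested on 1 mouse each. TRAV6-4 held 0.269%, 0.149% and 12.3% in mice 7, 10 and 16 and 0.0455%, 0.163% and 0.285% in mice 3, 11 and 20 (edgeR log2 ratio 4.47 ± 1.34 SE, adjusted p = 0.0367), and without mouse 16 the log2 ratio was 0.21. One clone, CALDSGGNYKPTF with TRAJ6, made up 93.2% and 94.3% of the TRAV6-4 counts in the tumors of mouse 16.
Mouse 16, TRAV6-4 with TRAJ6, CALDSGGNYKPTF: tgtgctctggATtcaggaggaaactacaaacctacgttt
TRAV15D-1/DV6D-1, a segment that can also join in the δ chain, held 0.0550%, 14.4% and 0.0243% at the high dose and 0.233%, 0.0336% and 0.199% at the low dose (edgeR log2 ratio 4.81 ± 1.48 SE, adjusted p = 0.0367). In mouse 10 a single TRAJ34 clone took 11.8% and 15.7% of the tumors, and without mouse 10 the log2 ratio was -1.50.
Mouse 10, TRAV15D-1/DV6D-1 with TRAJ34: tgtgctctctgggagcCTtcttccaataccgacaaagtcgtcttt
TRAV13-5 had 0 of 1049185 counts at the high dose and 3918 of 625334 at the low dose. Of the 3918 counts, 3901 came from mouse 20, and mice 3 and 11 had 17 and 0. The segment passed the filter on low shares through mouse 20 alone, so its call describes that mouse and neither a fold nor a p is given. Without mouse 20 the low-dose share was 0.00408%. The clone behind it joined TRAJ49 and held 1.58% and 2.13% of the tumors of mouse 20.
Mouse 20, TRAV13-5 with TRAJ49: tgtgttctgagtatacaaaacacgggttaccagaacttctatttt

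The 4 calls depended on the fit. Leaving out a mouse gave 0 calls without mouse 7, 4 without mouse 10, 2 without mouse 16, 1 without mouse 3, 1 without mouse 11 and 3 without mouse 20. The 4 without mouse 10 did not repeat the 4 of the full fit, since TRAV15D-1/DV6D-1 had a log2 ratio of -1.50 there. TMM scaling, limma on log shares and a fit of all 12 mice gave 0 calls, and DESeq2 gave 1, TRAV9-2, and no adjusted p for the other 3. TRAV6-4, TRAV9-2 and TRAV15D-1/DV6D-1 have near-identical duplicated copies in the mouse TRA locus, so counts could be assigned among copies with error.

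**Figure D5:**
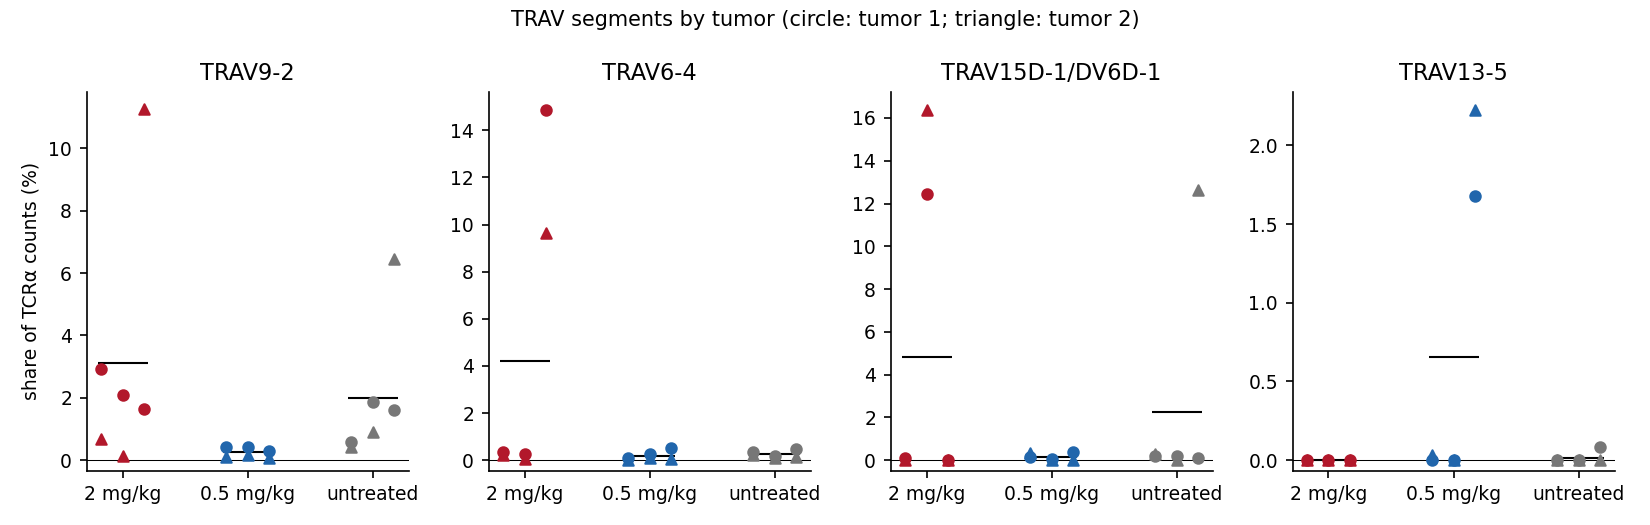
Share of the TRA counts (percent) of the 4 TRAV segments called between the doses, with 1 point per tumor (circles for tumor 1, triangles for tumor 2), the untreated time-separated mice beside the doses and horizontal ticks for group means. By mouse, TRAV9-2 was above the low dose in each high-dose mouse, 1.11% to 6.44% against 0.185% to 0.292%, whereas the values of TRAV6-4, TRAV15D-1/DV6D-1 and TRAV13-5 stand out in mouse 16, mouse 10 and mouse 20.

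Lower TRAV values at the high dose without a call were seen for TRAV6-5 and TRAV4-2. TRAV6-5 held 1.39%, 0.789% and 0.631% of the counts in mice 7, 10 and 16 and 6.97%, 11.7% and 3.67% in mice 3, 11 and 20 (edgeR log2 ratio -2.64 ± 1.09 SE, adjusted p = 0.122). By clonotypes it held 2.29%, 1.80% and 1.90% against 6.98%, 6.43% and 3.90% (edgeR adjusted p = 0.257). TRAV4-2 held 0.516%, 0.396% and 0.255% of the counts against 2.25%, 1.10% and 2.03% (edgeR log2 ratio -2.31 ± 1.02 SE, adjusted p = 0.157). Neither segment overlapped between the doses in either unit, and the untreated mice, at 1.25% to 4.79% for TRAV6-5, spanned from the high dose into the low dose. By clonotypes 0 of 59 TRAV segments were called by edgeR (0%), with 9 at an unadjusted p below 0.05, and DESeq2 and limma called 0. Of the 59, 9 did not overlap (15.3%), 4 higher and 5 lower at the high dose. The most used TRAV segments by counts were TRAV3-3, with 6.38%, 30.1% and 1.90% against 18.4%, 7.93% and 7.17%, TRAV7-4, with 11.0%, 2.03% and 3.05% against 10.4%, 7.45% and 10.7%, and TRAV7-3, with 22.3%, 2.03% and 1.93% against 3.49%, 3.32% and 5.83%. The high values of TRAV3-3 in mouse 10 and TRAV7-3 in mouse 7 were in the mice whose largest TRA clones use these segments.

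No TRAJ segment was called by edgeR, 0 of 40 by counts (0%) and 0 of 41 by clonotypes (0%), with 2 and 1 at an unadjusted p below 0.05 and 0 by DESeq2. Without mouse 16 edgeR called 1 by counts, TRAJ5, chosen here with its values known, which held 0.107%, 5.46% and 0.101% in mice 7, 10 and 16 and 0.0826%, 0.0495% and 0.444% in mice 3, 11 and 20. By counts 3 of 40 (7.5%) did not overlap, all lower at 2 mg/kg. TRAJ12 held 1.49%, 0.989% and 1.17% in mice 7, 10 and 16 and 6.60%, 1.59% and 7.52% in mice 3, 11 and 20 (edgeR adjusted p = 0.403). Mice 3 and 20 are those in which the same TRAV7-4 clonotype with this J segment was found at large shares. TRAJ22 held 1.54% ± 1.02 and 4.65% ± 1.70, and TRAJ24 0.112% ± 0.0492 and 1.21% ± 1.65 (SD, n = 3 each), the latter with 3.11% in mouse 3. By clonotypes 4 of 41 (9.76%) did not overlap, 3 lower and TRAJ26 higher, at 9.37%, 3.59% and 2.68% against 2.29%, 2.49% and 2.48% (edgeR adjusted p = 0.626). The most used TRAJ segment by counts, TRAJ13, held 9.99%, 27.9% and 0.326% against 1.64%, 7.20% and 2.95%, the 27.9% lying in mouse 10 with its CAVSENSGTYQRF clone. TRAJ30 held 8.08%, 8.14% and 1.31% against 3.12%, 19.7% and 2.53% of the counts, and TRAJ49 9.75%, 2.33% and 5.53% against 3.40%, 6.53% and 11.9%. By clonotypes TRAJ40 took the place of TRAJ13 among the 3 most used, with 4.53%, 5.29% and 8.09% against 4.11%, 4.90% and 4.98%. All 4 overlapped between the doses.

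Invariant T cells were followed by their α chains. NKT cells recognise lipids on CD1d through a nearly fixed TRAV11 to TRAJ18 chain, and mucosal-associated invariant T (MAIT) cells recognise riboflavin metabolites on MR1 through TRAV1 with TRAJ33. In the 6 mice, 13 nucleotide sequences encoded the NKT chain. The one printed is the commonest in tumor 1 of mouse 10, with 529 of the 1262 counts of this chain there.
NKT chain, TRAV11 with TRAJ18: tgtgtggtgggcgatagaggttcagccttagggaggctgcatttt
It was found in all 12 tumors, at 0.0874% and 0.530%, 0.593% and 0.0169%, and 0.188% and 0.0895% in tumors 1 and 2 of mice 7, 10 and 16. At the low dose it was 0.335% and 0.129%, 0.278% and 0.0374%, and 0.705% and 0.0443% in mice 3, 11 and 20. The doses overlapped, and tumor 1 had the higher share in each mouse except mouse 7. The whole TRAV11 segment held 0.421% ± 0.116 of the counts at the high dose and 4.77% ± 7.73 at the low dose (SD, n = 3 each, exact permutation p = 0.8). The low-dose mean came from mouse 20 at 13.7%, whose largest TRA clone joins TRAV11 to TRAJ32 and is no NKT chain. TRAV1 with TRAJ33 and a CDR3 of 12 residues was found in 4 of 6 tumors at the high dose and 3 of 6 at the low dose, at no more than 0.126%. TRAV1 held 1.05% ± 0.827 and 0.937% ± 0.567 of the counts, and TRAJ33 1.81% ± 0.756 and 1.88% ± 2.06 (SD, n = 3 each, exact permutation p = 0.8 and 1).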

How the data were processed

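TCRα and TCRβ libraries were made with a SMART-Seq mouse TCR kit that adds unique molecular identifiers, 1 per tumor and chain. The authors ran the Cogent NGS Immune Profiler, and the deposited tables give 1 raw count per receptor sequence, without normalization. Their methods name an identifier-based step in that software, yet give the retained totals as reads, as the count column is also named, so whether a count is a read or a molecule was not settled. The genome build is not given in the sources used here.

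Sequences with a stop or frame mark, or under 2 counts, were left out. Sequences of a V segment of another locus held 0.0913% to 1.53% of the retained TRA counts and up to 0.0405% of the TRB counts in the decitabine tumors, and were kept. After this filter, libraries were thinned to 63291 (TRB) or 26623 (TRA) counts, the smallest of all 24 tumors, with 20 draws from seed 20. The tumors of a mouse were averaged, and mice were compared by exact two-sided permutation tests in Python 3.11.15. The p-values measure the spread between these mice. Segment counts, summed per mouse, were tested with edgeR 4.0.16, with the total as library size, a mean share of at least 0.1% and Benjamini-Hochberg adjustment, and again with DESeq2 1.42.0 and limma 3.58.1 (R 4.3.3). In simulated data, 16-fold changes were recovered in 41.1% of cases for TRAV by counts and 100% by clonotypes.

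Segments named were those called, the 3 most used of each kind, up to 3 with the largest change among those of at least 1% without overlap, and the fixed lists. Clonotypes named were the largest of each mouse, that with the highest share outside its top mouse on each chain, the invariant chains and, chosen after their values were seen, the leading clonotypes of called segments, those among the largest with a mean share of at least 0.05% in another mouse, and those found in all 6 mice. Groups, lists and comparisons were chosen with earlier results of these data known.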

Additional observations from a re-analysis of the deposited data

Results flagged for a closer look

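Over 40 sets of 6 tumors (1 measure, chain and dose each), 1 held a tumor far from the others by Dixon's criterion at 95%, and chance alone marks about 1 in 20 such sets. The non-productive share of the TRB counts in tumor 1 of mouse 16, at 2 mg/kg, was 8.78%. The next highest of that dose was 7.35% and the lowest 6.78%, so the gap to the next tumor was 0.714 of the whole range. This tumor also had the largest TRB table, with 887567 retained counts. The part of depth in this value was not tested.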

How the results depend on the processing

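Under the 20 settings tried, 415 of the recomputed values of the 36 results kept their direction and call, 15 moved and 16 reversed, and 20 of the 36 results were the same under every alternative that could be run. For the 28 measures compared by exact permutation test, no setting could bring p below 0.05. There, the same means only that the direction was kept. The cause of the changes below was not tested. Clonotype number at the common depth, as a log2 difference of 2 mg/kg from 0.5 mg/kg, turned to 0.041 (TRB) and 0.012 (TRA) at a minimum of 5 counts, and to 0.17 and 0.015 without thinning. With the tumors numbered 2 only, TRA reversed to -0.14 for clonotypes of all retained counts (log2), 0.0192 for the Shannon index, -0.0129 for the Gini coefficient, -0.79 points for the share above 1% and 1.30 points for the share of 0.1% to 1%. After removal of every mouse's largest clonotype, the difference in the TRB median absolute log2 ratio was 0.052.

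Leaving out 1 mouse at a time gave ranges that crossed 0 for clonotypes of all retained counts (log2 difference -0.022 to 0.37 for TRB, negative without mouse 10, and -0.29 to 0.19 for TRA, negative without mouse 10 or mouse 3), the TRB median absolute log2 ratio (-0.60 to 0.011, positive without mouse 10), TRA CDR3 length (-0.0798 to 0.122 residues, negative without mouse 16 or mouse 3) and the log2 ratio of TRAV15D-1/DV6D-1 (-1.50 to 5.40, negative without mouse 10). For the 7 measures without overlap outside the adjusted family, leaving out a mouse was added after seeing the data, and no direction changed.

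Segments called by counts between the doses moved from 4 to 0 for TRAV with TMM, limma, all 12 mice or the tumors of either number alone, to 1 with DESeq2 and to 0 to 4 without 1 mouse. They moved from 0 to 1 for TRBV with DESeq2, and to 0 to 1 without 1 mouse for TRBJ by counts, TRBJ by clonotypes and TRAJ by counts. TRAV calls by clonotypes went from 0 to 3 without the filter on low segments. Of the values of single segments, 35 lost their call, 1 gained one and 1 reversed, and DESeq2 gave no adjusted p for 3. Depth limits rare clonotypes, since 3 counts are 0.00474% of the smallest TRB table. No paired analysis was possible because the mice of the doses share no number.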
